A study of Homo sapiens with 3 samples.

Results

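The comparison described here sets HEK293T cells that carried the TRAF7 G536S mutant against HEK293T cells that carried the empty vector, as 1 array minus 1 array. Genes were taken where a probe set names that gene alone in the platform annotation, each gene was read from its brightest probe set, and genes with a mean over the 3 arrays at or above the median gene (1.21 on the log2 scale) were kept. That left 11198 of 22395 measured genes, 10075 of them protein-coding. Just under the limit stood CHST9, ZNF23 and C16orf54, with means of 1.21 and differences of 0.23, 0.17 and -0.23, and just above it stood HSPE1P22, DENND2B and PRELID2, with means of 1.21 and differences of -0.04, -0.10 and 0.03. HEK293T is an established line from human embryonic kidney that carries the SV40 large T antigen. The titles give HEK293T and the cell line field spells it HEK239T. Every culture was transduced by lentivirus and kept in puromycin: the empty vector cells received pCDF1 alone, the mutant cells pCDF1-TRAF7 G536S, and a further culture pCDF1-TRAF7 wildtype, so the selection and the vector were shared by all 3. The mutant was an added copy, and the labels name no deletion of the cells' own TRAF7. Total RNA from dividing cells was extracted with TRIzol and read on an Affymetrix oligonucleotide array. Each group had 1 array and no replicate, so every value is a description of these arrays: no p-value, error or count of significant genes can be given, and the construct cannot be told apart from the culture, the selection or the array.

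TRAF7 is a ubiquitin ligase with a RING finger, which recruits the conjugating enzyme, and a set of WD40 repeats, which fold into a propeller that binds partner proteins. It binds the kinase MEKK3, which lies upstream of ERK5 and of other MAP kinases, and has been studied in NF-kB signalling. G536S replaces a glycine of the WD40 propeller with a serine, and changes in this propeller are found in meningioma.

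The labels were checked against TRAF7 itself. The empty vector array read 5.66 for it, the wild-type construct 8.11 and the mutant 7.35. The difference of 1.70 for G536S was the highest of any protein-coding gene, and stood between 1.52 and 1.73 over the rescalings tried. The probe set does not separate the construct from the cell's own transcript. In these bulk samples fewer cells expressing a gene and less RNA per cell cannot be told apart, here and for every gene below. Of the other TRAF genes past the level filter, TRAF3 differed by 0.32, TRAF5 by 0.25, TRAF6 by 0.16 and TRAF4 by 0.03. These are adaptors of TNF receptor and Toll-like receptor signalling, and none was 1.5-fold apart.

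The 3 arrays did not have the same spread of values. Over 53617 probe sets the 75th percentile was 1.73 for the empty vector, 1.85 for wild type and 1.86 for G536S, with medians of 1.01 to 1.04. The median gene past the level filter was 0.10 higher in the G536S array than in the empty vector array, and quantile normalization moved that median by -0.13 and cyclic loess by -0.10. Group medians below are therefore given relative to the median gene where this is said, and are plain differences otherwise. Plain differences are to be read beside the 0.10 of the median gene. Among the filtered genes, those higher with G536S by 2-fold or more numbered 104 (0.929%), and those lower numbered 30 (0.268%). At 1.5-fold, 680 were higher (6.07%) and 233 lower (2.08%). Genes higher made up 77.6% of those 2-fold apart, but 48.6% after quantile normalization and 54.1% after cyclic loess, so the balance of higher and lower genes is not fixed by these arrays. For protein-coding genes alone the 2-fold counts were 52 higher (0.516%) and 17 lower (0.169%), and they became 19 and 33 after quantile normalization. At 1.5-fold they were 523 (5.19%) and 188 (1.87%). Of the 30 highest and 30 lowest protein-coding genes, 30 and 30 kept a difference of at least 1.5-fold in the same direction under each rescaling, the floor and the mean of probe sets. Most genes on these arrays sit near background, where differences are compressed.

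**Figure D1:**
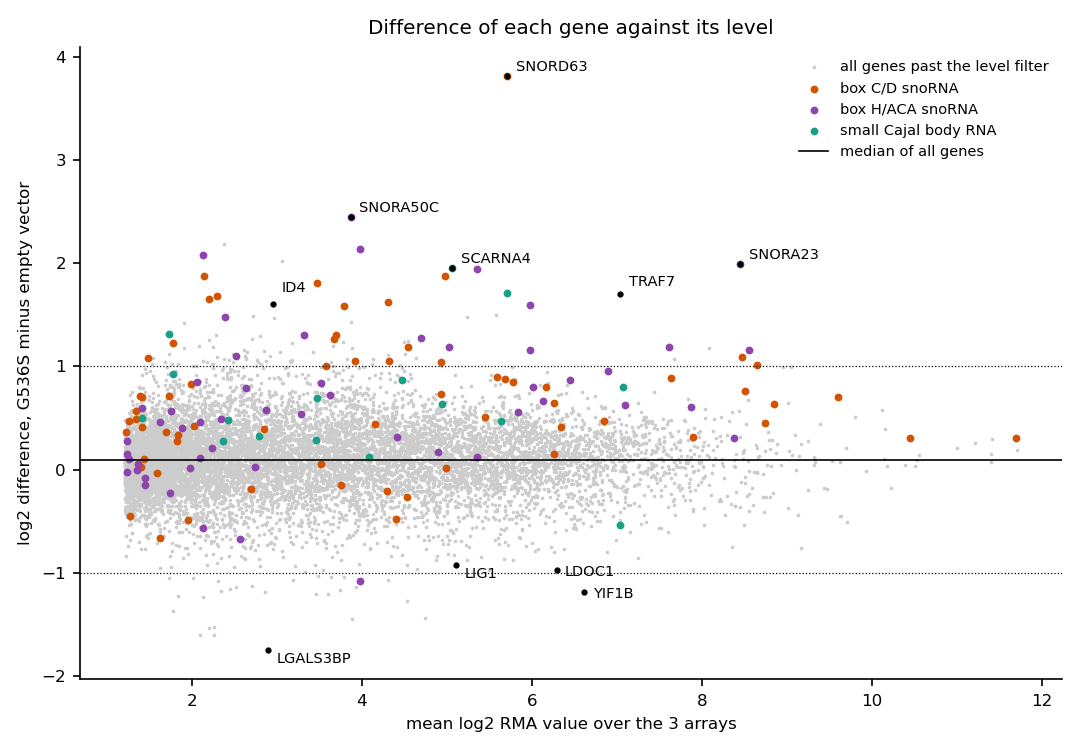
Each point is a gene past the level filter, with its mean log2 RMA value over the 3 arrays on the x axis and its log2 difference, G536S minus empty vector, on the y axis. The solid line marks the median gene at 0.10, the dotted lines mark 2-fold, and SNORD63 at 3.82 and LGALS3BP at -1.75 are the farthest points above and below.

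After TRAF7 the highest protein-coding gene was ID4, which blocks basic helix-loop-helix factors by pairing with them. It read 1.93 for the empty vector, 3.42 for wild type and 3.53 for G536S, a difference of 1.60. Both TRAF7 arrays were thus high and the empty vector array was low. FANCL, the ligase subunit of the Fanconi anaemia core complex, read 2.97, 4.15 and 4.21 in the same order, a difference of 1.24. FIGNL1, an ATPase of homologous recombination, read 3.88, 4.47 and 5.12, and here the wild-type array lay in the middle. UIMC1 (RAP80), which brings BRCA1 to ubiquitin at DNA breaks, read 4.64, 4.94 and 6.12, a difference of 1.48, but its second probe set differed by 0.36 and the mean of both by 0.92, so its size is uncertain.

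Among genes of mitochondria, MSTO1, which acts in mitochondrial fusion and shape, read 1.20, 1.90 and 2.63 in the empty vector, wild-type and G536S arrays, a difference of 1.42. Its empty vector value lay just below the level limit of 1.21, so MSTO1 passed the filter through the TRAF7 arrays. MTERF2, of the mitochondrial transcription termination factor family, read 1.53, 2.27 and 2.79, a difference of 1.26. MTARC1, a molybdenum enzyme of the outer mitochondrial membrane, read 1.87, 1.81 and 3.05, so only the G536S array stood high. RTKN2 differed by 1.47, and KLF16, a zinc finger factor of the KLF family, by 1.07. ANO5, an anoctamin of intracellular membranes, read 2.86, 4.46 and 4.29, and TC2N read 3.55, 5.28 and 4.67, and in both genes wild type exceeded G536S.

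The other members of the highest 30 had mixed roles. RAB23, a RAB GTPase that restrains hedgehog signalling at the cilium, differed by 1.20, COG3, a subunit of the Golgi tethering complex COG, by 1.18, and FIG4, a phosphatase of phosphoinositides on endosomes, by 1.09. SLC27A2, a fatty acid transporter and acyl-CoA ligase, differed by 1.23 and SLC44A5, a choline transporter-like protein, by 1.11. IQCB1, a ciliary protein, differed by 1.07, SRSF12, an SR family splicing regulator, by 1.13, and ASNSD1 by 1.08. SRSF12 read 1.19 with the empty vector, just below the level limit of 1.21, and passed the filter through the TRAF7 arrays. The zinc finger genes ZNF724 (1.30) and ZNF431 (1.10) and FAM72D (1.29) have near-identical relatives whose transcripts may reach the same probes, which leaves their values uncertain. C5orf63 (1.20), CDKL2 (1.18), B3GALT9 (1.15), HYKK (1.12), STK33 (1.10), FAM184A (1.09) and FAM171B (1.07) complete the 30. The wild-type array lay between the other arrays in 24 of these 30 genes, at or above the G536S array in 5 and at or below the empty vector array in 1. The 30 were picked for a wide gap between the G536S and empty vector arrays, which by itself favours a wild-type value between them. A mean level of 4 or more was reached by 7 of the 30.

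The lowest protein-coding gene was LGALS3BP, a secreted glycoprotein that binds galectins and tetraspanins. It read 3.84 for the empty vector, 2.75 for wild type and 2.09 for G536S, a difference of -1.75, which is the 3 arrays in falling order. GIPC3, a PDZ protein, read 4.57, 3.95 and 3.13, a difference of -1.44. RBFOX3 (NeuN), a neuronal splicing factor, read 2.58, 1.56 and 1.36, a difference of -1.22, and lay close to background in both TRAF7 arrays. LIG1, the ligase that joins Okazaki fragments, read 5.67, 4.89 and 4.75, a difference of -0.93.

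A second kind of low gene was low in the G536S array alone. YIF1B, a Golgi membrane protein, read 6.96, 7.12 and 5.77 in the empty vector, wild-type and G536S arrays, a difference of -1.19 at a level well above background. LDOC1 read 6.59, 6.67 and 5.62, a difference of -0.97. PKN3, a kinase of the protein kinase N family, read 5.80, 5.88 and 4.83, also a difference of -0.97. BHLHE40 (DEC1), a clock and hypoxia-induced repressor, read 3.79, 3.91 and 2.76, a difference of -1.04. SLC4A11, a membrane transporter of the bicarbonate transporter family, read 4.34, 4.27 and 3.20, a difference of -1.14. In these 5 genes the wild-type and empty vector arrays differed by -0.06 to 0.16.

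Of the remaining low genes, MAPK8IP3 (JIP3), a scaffold of the JNK cascade, differed by -1.16, QPCTL, a Golgi enzyme that forms N-terminal pyroglutamate, by -1.20, ADAM11, a metalloprotease-family protein without protease activity, by -1.14, and EME2, a partner of the MUS81 nuclease, by -1.07. SOX9, a developmental transcription factor, differed by -0.94, HOXC13, a homeobox factor, by -0.94, EN2, the engrailed homeobox factor, by -0.92, ATP2A3, a calcium pump of the endoplasmic reticulum, by -0.94, and SLC6A6, the taurine transporter, by -0.88. PIP4K2C, a phosphoinositide kinase, differed by -0.97, MAN2C1, a cytosolic mannosidase, by -1.04, FBXL6, an F-box protein, by -1.06, and AKAP8, a nuclear anchor of protein kinase A, by -0.87. EOLA2 (-1.60), NBPF3 (-1.18), TIGD5 (-1.18), PRR22 (-1.05), PPP1R35 (-1.04), TOR2A (-0.99), RHBDD2 (-0.93) and RUSC2 (-0.92) complete the 30, and NBPF3 has near-identical copies. The wild-type array lay between the other arrays in 26 of the 30 and at or above the empty vector array in 4. This choice of genes by their gap also favours a wild-type value in between. A mean level of 4 or more was reached by 6 of these 30.

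**Figure D2:**
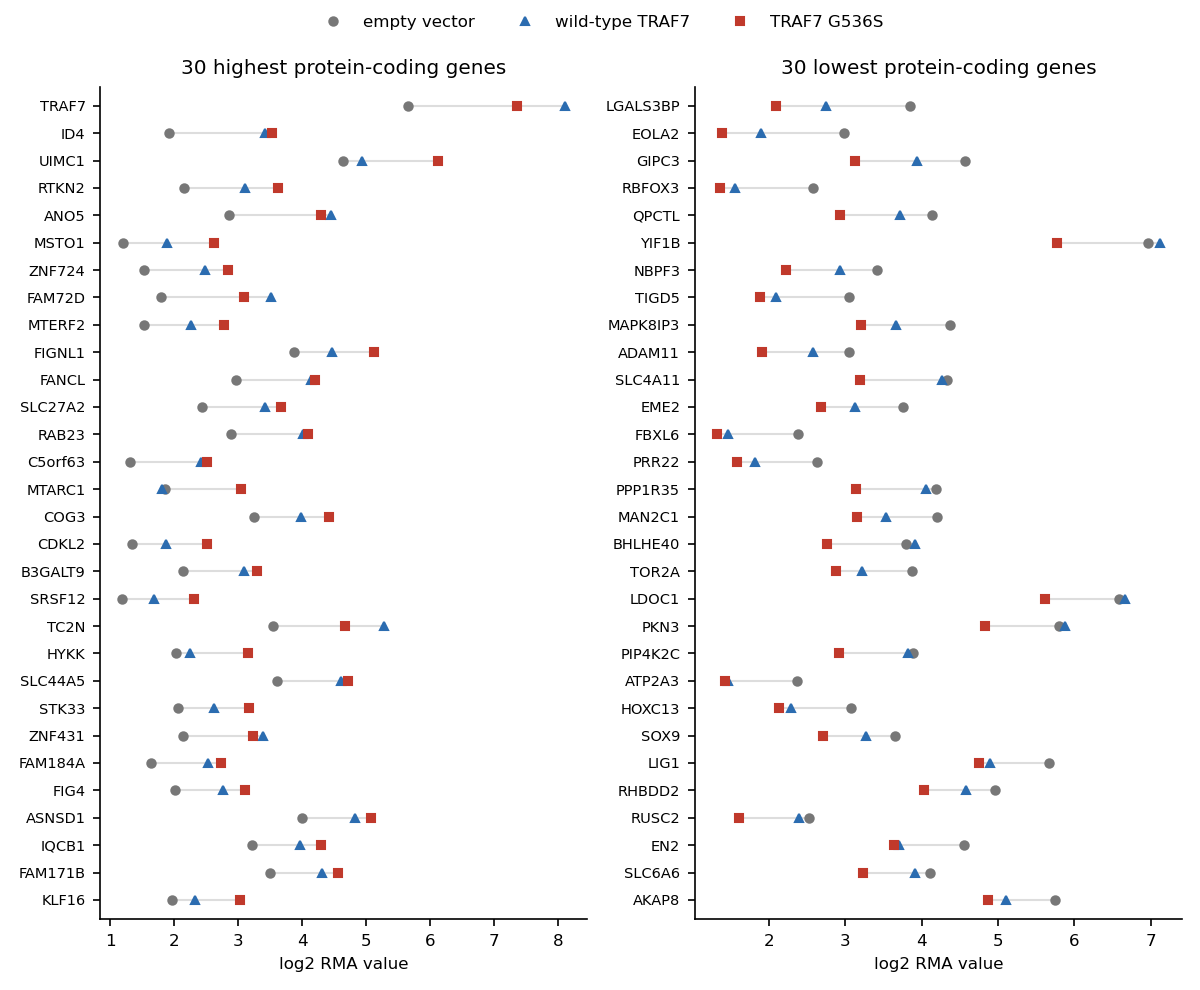
The log2 RMA value of each of the 30 highest and 30 lowest protein-coding genes is shown for the empty vector array (circle), the wild-type TRAF7 array (triangle) and the TRAF7 G536S array (square), 1 array each. TRAF7 runs from 5.66 to 8.11, LGALS3BP from 2.09 to 3.84, and YIF1B, LDOC1 and PKN3 show the wild-type value beside that of the empty vector.

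ID proteins bind the E proteins that basic helix-loop-helix factors need, and ID1 to ID3 are classical targets of BMP signalling. ID4 stood against the other members of its family. ID2 read 2.57 for the empty vector, 2.02 for wild type and 1.93 for G536S, a difference of -0.64, and ID1 and ID3 each differed by -0.31. Of the 39 genes listed for ID proteins and BMP signalling, 29 passed the level filter, 2 were 1.5-fold higher and 1 was 1.5-fold lower, against 6.07% and 2.08% of all genes, and the median member stood at -0.03 relative to the median gene. The second higher gene was MSX2, a homeobox target of BMP, at 1.28, 1.21 and 1.99. The ligands BMP7 and BMP4 differed by -0.42 and -0.30. SMAD5, a transducer of BMP receptors, differed by 0.47, the inhibitory SMAD6 and SMAD7 by 0.21 each, and the receptor BMPR2 by 0.03. Of the E proteins, TCF3 differed by 0.28, TCF12 by 0.01 and TCF4 by -0.27.

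LGALS3BP is induced by interferon, whose signal passes through JAK kinases and STAT factors to the factor IRF9, so the interferon genes were read beside it. Of 55 measured interferon genes 24 passed the level filter, 0 were 1.5-fold higher and 4 were 1.5-fold lower, against 6.07% higher and 2.08% lower over all genes. The median member stood at -0.12 relative to the median gene, and the difference itself was -0.04 over all 55. IFITM2, a membrane protein that blocks virus entry, read 6.52, 6.37 and 5.92 in the empty vector, wild-type and G536S arrays, a difference of -0.60. IFITM1 read 1.98, 1.68 and 1.34, a difference of -0.65, IRF2, a repressor of interferon genes, 3.43, 2.77 and 2.66, a difference of -0.77, and IRF9 2.12, 1.54 and 1.53, a difference of -0.59 on 1 probe set and of -0.10 on its second, which is near background. Other members went the other way: B2M, the light chain of MHC class I, differed by 0.47, HERC5, the ligase for ISG15, by 0.37, and IFITM3 by 0.08, with the wild-type array low at 1.13. USP18, a negative regulator of the pathway, differed by -0.40 and IFI6 by -0.09.

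The promoters show where these genes do and do not share the letters that IRF factors read. The motif searched was GAAA, any 2 bases and GAAA, or TTTC, any 2 bases and TTTC on the other strand. It lies in the 250 bases before the start of LGALS3BP and of 8 of 18 interferon genes with a promoter in the table (44.4%), against 2.01% of the protein-coding genes past the filter and 3.07% of all promoters in the table. Shown are 60 bases around the match for LGALS3BP and for 3 interferon genes, in RefSeq sequence of GRCh38.p14, 5′ to 3′ on the gene's strand, with the matches in capitals. In TAP1 a pair of matches overlaps.
LGALS3BP, chr17:78979947-78980006, minus strand: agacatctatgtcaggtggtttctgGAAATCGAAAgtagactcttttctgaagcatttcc
IFITM1, chr11:313975-314034, plus strand: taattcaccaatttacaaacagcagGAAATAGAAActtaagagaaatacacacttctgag
IFI6, chr1:27672251-27672310, minus strand: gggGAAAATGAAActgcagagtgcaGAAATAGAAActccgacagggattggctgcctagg
TAP1, chr6:32853798-32853857, minus strand: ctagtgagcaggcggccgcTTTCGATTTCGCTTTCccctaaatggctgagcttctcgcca
The match in LGALS3BP begins 58 bases and that in IFITM1 40 bases before the start. In the order shown, these genes differed by -1.75, -0.65, -0.09 and -0.12, so genes with these letters did not share a size of difference. Over all 8 interferon genes with a match the median difference was 0.02, and over the 10 without one it was -0.01. A match describes the letters and not a bound site.

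Small nucleolar RNAs (snoRNAs) guide the chemical modification of ribosomal and spliceosomal RNA: box C/D members guide methylation, box H/ACA members guide pseudouridine formation, and small Cajal body RNAs (scaRNAs) do the same for spliceosomal RNA. Most are cut from the introns of host genes. They formed the groups farthest from the median gene. Of 65 box C/D snoRNAs past the filter 33 were at least 1.5-fold higher and 1 lower, of 53 box H/ACA snoRNAs 25 were higher and 2 lower, and of 16 scaRNAs 8 were higher and 0 lower, against 6.07% higher and 2.08% lower over all genes. Their median differences were 0.63, 0.57 and 0.56. Relative to the median gene the box H/ACA median stayed between 0.45 and 0.72 and the scaRNA median between 0.40 and 0.56 over all alternatives. The box C/D median stayed between 0.44 and 0.64, except that it was 0.04 with no level filter, where 92 of the 157 members lie below the limit. The limit is set on the mean of the 3 arrays, so a high G536S value helps a member to pass: of the members counted as higher, 5 box C/D, 2 box H/ACA and 0 scaRNAs read below the limit with the empty vector. With the limit set on the wild-type array alone, which takes no part in the difference, 33 of 64 box C/D, 24 of 52 box H/ACA and 8 of 16 scaRNAs were higher, against 671 of all 11186 genes. With it set on the empty vector array alone the counts were 28 of 57, 23 of 49 and 8 of 15, against 638 of 11224.

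SNORD63 had the highest difference of any gene, at 3.62 with the empty vector, 6.07 with wild type and 7.44 with G536S, a difference of 3.82. SNORA23 read 7.71, 7.95 and 9.70, a difference of 1.99, and here the wild-type array stayed near the empty vector array. SCARNA4 read 4.34, 4.56 and 6.29, a difference of 1.95. SNORA65 read 7.23, 7.18 and 8.42 and SNORA68 8.11, 8.28 and 9.27, both far above background. The other high members named by rank were SNORA50C (2.45), SNORA3B (2.14), SNORA79 (2.08), SNORA12 (1.94), SNORD60 (1.88), SNORD59B (1.88), SNORD58A (1.80), SCARNA9L (1.71), SNORD1B (1.69), SNORD70 (1.66) and SNORD111 (1.63). The lowest were SNORA38B at -1.08 and, among scaRNAs, SCARNA17 at 7.31, 7.03 and 6.77, a difference of -0.54. Of all 134 snoRNAs and scaRNAs past the filter, the G536S array was the highest of the 3 in 101 and the empty vector array the lowest in 84. No share over all genes stands beside these counts, and the median gene was itself 0.10 higher with G536S. A high G536S value also helps a member to pass the filter, so the counts only describe these members.

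The host genes did not differ to the same degree, though many lay above the median gene. In a list of snoRNA host genes, 14 of 17 past the filter did so. Of these 17, 3 were 1.5-fold higher and 0 lower, against 6.07% and 2.08% of all genes. The list median stood 0.20 above the median gene, and between 0.17 and 0.29 above it under the alternatives. For 91 of the 134 small RNAs a single measured host gene, past the filter or not, could be named from the RefSeq table, in 72 different hosts. The median small RNA of these 91 differed by 0.60 and the median host by 0.14, and 70 of 91 lay above their host. The small RNAs of this comparison had to pass the level limit and the hosts did not. With member and host both held to the limit on the wild-type array alone, the medians were 0.63 and 0.17 and 67 of 87 members lay above their host, and over all 146 measured members with a host, with no limit, the medians were 0.28 and 0.14 and 103 lay above it. Of 46 that were at least 1.5-fold higher, the host was 1.5-fold higher in 5, to be read beside the 6.07% of all genes. GAS5 was counted among these for both SNORD78 and SNORD75. SNORD63 lies in HSPA9, a mitochondrial chaperone, which read 9.35, 9.25 and 9.15. SNORA23 lies in IPO7, a nuclear import receptor, which differed by 0.44. SNORA24 lies in SNHG8, a non-coding host, and both were higher, by 1.19 and 1.25. GAS5, the host of SNORD78, differed by 0.76 and SNORD78 by 1.09. Members of the same host also differed among themselves: in ZFAS1 they ran from -0.27 to 1.30 and in NOP58 from 0.56 to 1.66. The NOP58 transcript itself differed by 0.18 and that of FBL, the methylase of box C/D particles, by 0.07. GAR1, a subunit of box H/ACA particles, read 2.11, 2.70 and 2.93, a difference of 0.82, while NOP10 and NHP2 differed by 0.37 and 0.34.

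**Figure D3:**
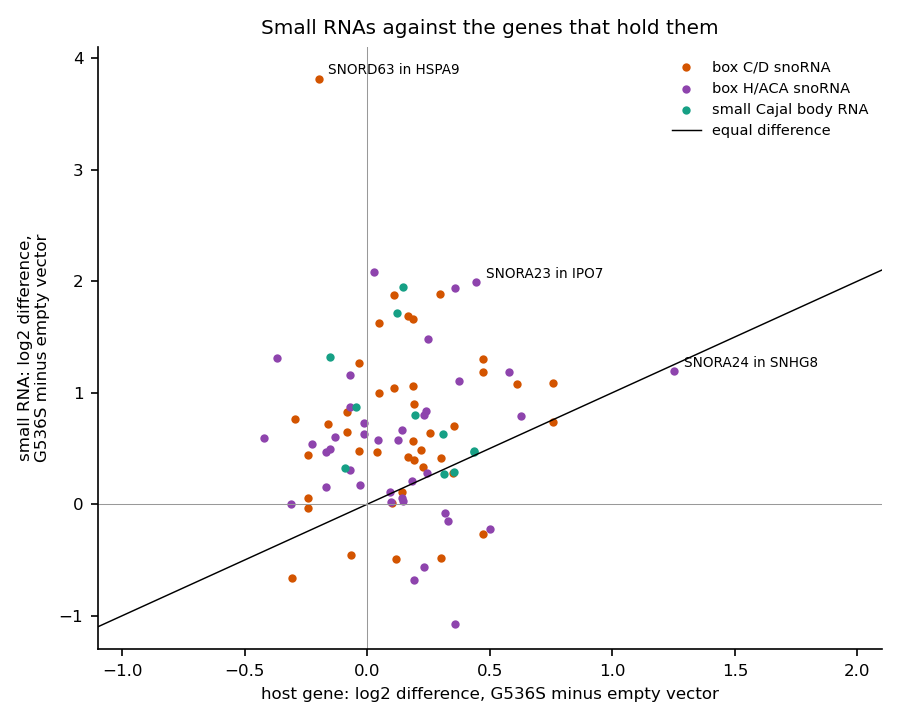
Each of 91 snoRNAs and scaRNAs is plotted by its log2 difference, G536S minus empty vector, on the y axis against that of its host gene on the x axis, and the line marks equal differences. In all, 70 of the 91 points lie above the line, and SNORA24 in SNHG8 lies close to it.

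Other short transcripts were less uniform. Of 30 spliceosomal and other small RNAs past the filter 12 were 1.5-fold higher and 2 lower, beside 6.07% and 2.08% of all genes. RNU4ATAC, the U4 RNA of the minor spliceosome, read 7.33, 7.26 and 8.41 and RNU5F-1, a U5 variant, 5.08, 5.07 and 6.57, so that both were high in the G536S array alone. VTRNA1-3, a vault RNA, differed by 1.14 and RNU1-16P by 2.18. Of 46 annotated 5S RNA copies 9 were higher and 1 lower, to be read against the same all-gene shares, with a median of 0.13 relative to the median gene. That median and the 0.15 of the spliceosomal group turned to -0.03 and -0.02 with no level filter. The copies share sequence and their values are uncertain. The yield of short RNA in each extract was not measured in these data, and its part in these results was not tested.

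Of 169 microRNA genes past the filter 9 were 1.5-fold higher (5.33%, near the 6.07% of all genes) and 14 lower (8.28%, against 2.08%), with a median at -0.08 relative to the median gene. Another 849 measured microRNA genes lay below the limit. With no level filter the median difference was -0.03, against -0.005 for all genes. A high empty vector value helps a lower member to pass, as for MIR3911 at 1.86, 0.79 and 1.03 in the empty vector, wild-type and G536S arrays. These shares therefore depend in part on the filter. The array reads the gene's transcript or hairpin and not the mature strand. MIR221 read 4.64 for the empty vector, 5.61 for wild type and 3.36 for G536S, a difference of -1.27. MIR222 lies beside it on the X chromosome and shares its seed, and it read 1.76, 2.46 and 1.33, a difference of -0.43. In both the wild-type array was highest and the G536S array lowest. The mature sequences (RefSeq, GRCh38.p14, minus strand), with the seed, bases 2 to 8, in capitals, show that shared seed, beside hsa-miR-647, whose gene is the other lower one with a mean level above 4.
hsa-miR-221-3p, chrX:45746180-45746202: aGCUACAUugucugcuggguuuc
hsa-miR-222-3p, chrX:45747036-45747056: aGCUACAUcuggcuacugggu
hsa-miR-647, chr20:63942691-63942711: gUGGCUGCacucacuuccuuc
MIR647 read 4.88, 4.24 and 3.80, a difference of -1.07. MIR3619 (-1.54), MIR924 (-1.21), MIR574 (-1.08), MIR4481 (-0.96) and MIR1976 (-0.91) were the other low members named by rank. MIR548L (1.26), MIR3907 (1.14), MIR544B (1.04) and MIR210 (0.87) were among the higher ones. Of the 23 miRNA genes at least 1.5-fold apart, 21 read below 4 on average over the arrays.

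The list for cell division had a median slightly above the median gene, with members on both sides of it. All 134 measured members of the G2/M and mitosis list passed the filter, and 98 lay above the median gene and 36 did not. At 1.5-fold 9 were higher, near the 6.07% of all genes, and 0 were lower, against 2.08%. The median member stood at 0.17 relative to the median gene, and between 0.15 and 0.27 under the alternatives. Relative to the median gene, kinetochore and centromere proteins had a median of 0.25 and spindle motors and microtubule proteins of 0.23. The transcription factors that drive these genes had one of -0.12. FOXM1 itself differed by 0.03 and MYBL2 by -0.05. MAD2L1, which holds anaphase until chromosomes are attached, read 3.06 for the empty vector and 4.03 for wild type, and G536S was 0.94 above the empty vector. SGO1, the protector of centromere cohesion, read 5.23, 5.41 and 6.06, a difference of 0.82. SKA3, of the complex that couples kinetochores to microtubules, read 4.70, 5.15 and 5.40, a difference of 0.71.

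Further members above 1.5-fold were the motor KIF20B (0.70), NSL1 of the MIS12 complex (0.69), CKAP2 (0.66), the phosphatase CDC25C (0.65), the motor CENPE (0.62) and CENPK (0.61). Some well-known members were lower. The kinase PLK1 read 8.68, 8.55 and 8.45, a difference of -0.23, the kinase AURKB differed by -0.21, and INCENP, its partner, by -0.48. FZR1, the late activator of the anaphase complex, differed by -0.53 and CDC20, the early one, by -0.09. Other kinases were higher, CDK1 and PLK4 by 0.45 each and AURKA by 0.35, as were the cyclin CCNA2 by 0.47 and the topoisomerase TOP2A by 0.35.

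Many G2/M promoters hold the cell cycle homology region, whose core TTTGAA was searched on both strands (TTTGAA or TTCAAA). It lay in the 250 bases before the start in 38 of 115 promoters of the list (33.0%), against 8.22% of protein-coding genes past the filter and 13.6% of all promoters in the table. The 3 windows below (RefSeq, GRCh38.p14, gene strand, match in capitals) belong to members with differences of 0.57, 0.54 and 0.50.
SMC4, chr3:160399548-160399607, plus strand: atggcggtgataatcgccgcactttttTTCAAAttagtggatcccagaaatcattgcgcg
ASPM, chr1:197146750-197146809, minus strand: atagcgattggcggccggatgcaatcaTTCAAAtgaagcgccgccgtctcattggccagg
KIF4A, chrX:70290043-70290102, plus strand: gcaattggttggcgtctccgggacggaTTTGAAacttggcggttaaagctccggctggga
Members with and without these letters had the same median difference, 0.27 each, and PLK1 and CDC20, which were not higher, hold them too. CCAAT, also searched as ATTGG, lay in 69 of the list's 115 promoters against 36.0% of protein-coding genes past the filter and 33.0% of all promoters in the table.

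Of 69 DNA replication genes past the filter 1 was 1.5-fold higher and 2 lower, counts that are close to or below the 6.07% and 2.08% of all genes, and the median member stood at 0.06 relative to the median gene. ORC4, an origin recognition subunit, read 3.39, 3.92 and 4.26 in the empty vector, wild-type and G536S arrays, a difference of 0.87. E2F2, an activator of S-phase genes, read 5.57, 4.94 and 4.75, a difference of -0.82, and LIG1 was the other low member. CDT1 and MCM5, which load the replicative helicase, differed by -0.47 and -0.41, while the primase subunits PRIM1 and PRIM2 differed by 0.47 and 0.52. Of 41 Fanconi anaemia and recombination genes past the filter 5 were 1.5-fold higher and 0 lower, against 6.07% and 2.08% of all genes: UIMC1, FANCL and FIGNL1 were joined by SWSAP1, a recombination factor, at 0.83, and the nuclease MRE11 at 0.61. BRCA1 differed by 0.09 and FANCI by 0.14, and the median of the list was 0.09 relative to the median gene.

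The median members of the lists for translation and respiration stood slightly above the median gene, and their counts at 1.5-fold stand beside 6.07% higher and 2.08% lower over all genes. Of 49 cytosolic ribosomal proteins past the filter 40 lay above the median gene, 5 were 1.5-fold higher and 0 lower, with a median 0.16 above it. RPS15A read 3.58, 3.97 and 4.38 in the empty vector, wild-type and G536S arrays, a difference of 0.80, and RPLP1, of the stalk, was lowest at -0.49. Of 71 mitochondrial ribosomal proteins 4 were 1.5-fold higher and 1 lower, which is near those shares: MRPL39 read 1.65, 2.43 and 2.67, a difference of 1.02, and MRPL49 5.25, 4.54 and 4.57, a difference of -0.68. In the list for mitochondrial gene expression and shape 4 of 28 were higher and 0 lower: MSTO1 and MTERF2 were joined by TEFM, the elongation factor of the mitochondrial polymerase (0.77), and SSBP1, which binds single-stranded mitochondrial DNA (0.68). Among 62 respiratory chain genes 3 were higher and 0 lower, namely COX7C of complex IV (0.84), ATP5IF1, the inhibitor of ATP synthase (0.75), and NDUFB3 of complex I (0.71). The medians of the mitochondrial ribosomal and respiratory lists were 0.10 and 0.09 above the median gene. SR proteins and the kinases that act on them had a median 0.16 above the median gene, with 4 of 19 at least 1.5-fold higher and 0 lower: beside SRSF12 these were CLK2 (0.77), CLK4 (0.66) and SRSF5 (0.65). In these counts MSTO1 and SRSF12 read just below the level limit with the empty vector. Of 30 proteasome subunits 1 was 1.5-fold higher, PSMA2, at 4.04, 4.45 and 5.00.

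Genes of the pathway that TRAF7 is known for were counted beside the 6.07% higher and 2.08% lower of all genes. The kinases of the MEKK3 to ERK5 chain differed little: MAP3K3 (MEKK3) read 3.74, 3.55 and 3.81 in the empty vector, wild-type and G536S arrays, a difference of 0.07. MAP3K2 differed by -0.07, MAP2K5 by 0.03 and MAPK7 (ERK5) by 0.10. Of 14 genes of the axis past the filter 0 were 1.5-fold higher and 1 was lower, ADAMTS1, a secreted protease, at 3.87, 4.62 and 3.26, and lists this short are near the background with such counts. KLF2, an ERK5 target, differed by -0.11 and KLF6 by -0.17. Of 18 listed NF-kB components and targets past the filter, 0 were 1.5-fold apart, and the list median stood at -0.12 relative to the median gene. NFKBIA, the inhibitor that NF-kB induces, differed by 0.41 and NFKBIB by -0.35. The list does not hold every gene of the pathway: NFKBID, outside it, differed by -0.64. The other genes known as drivers of meningioma were not 1.5-fold apart in any of 8 members past the filter, with NF2 at 0.34, AKT1 at 0.04 and SMO at 0.01.

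Immediate early genes, which growth signals switch on within minutes, were mostly lower. The AP-1 subunits, 3 of 6 of them above the median gene, ran from JUNB at -0.46 through JUND at -0.01 and JUN at 0.32 to ATF3 at 0.78. Of the 10 other early genes past the filter 2 lay above the median gene, and their median was 0.39 below it. MYC read 6.37, 6.16 and 5.58 in the empty vector, wild-type and G536S arrays, a difference of -0.79, NR4A2, a nuclear receptor, 1.62, 1.26 and 1.01, and IER2 2.49, 2.26 and 2.12. DUSP1, which removes phosphate from MAP kinases, read 5.17, 6.70 and 4.33, a difference of -0.84. It was the only 1 of 13 phosphatases and ERK feedback genes past the filter that was 1.5-fold apart. In a list this short such a count is near the 6.07% higher and 2.08% lower of all genes. SPRY2 and SPRED2, inhibitors in the RAS pathway, differed by -0.05 and -0.06.

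Sterol synthesis turns acetyl-CoA into cholesterol through the mevalonate arm and then the lanosterol arm. Of 28 genes of this list past the filter 4 were 1.5-fold higher and 0 lower, against 6.07% and 2.08% of all genes, with a median 0.06 above the median gene. IDI1, an isomerase of the mevalonate arm, read 2.19, 2.04 and 3.16 in the empty vector, wild-type and G536S arrays, a difference of 0.97. SC5D, a late desaturase, read 2.35, 2.51 and 3.23, a difference of 0.88. Both were high in the G536S array alone. INSIG1, which holds the sterol sensor in the endoplasmic reticulum, differed by 0.65 and GGPS1, which makes geranylgeranyl diphosphate, by 0.60, while LSS, the synthase of lanosterol, differed by -0.46. The glycolytic enzymes and glucose transporters lay 0.19 below the median gene, with 3 of 19 above it and 0 at 1.5-fold: GPI differed by -0.36, PKM by -0.27 and LDHA by 0.14.

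Several smaller groups lay below the median gene, by amounts that shrank under some alternatives: to 0.06 for the NOTCH list as a whole, 0.04 for the TGF-beta and matrix list and 0.03 for the lysosome list. NOTCH targets had a median 0.21 below it, with 1 of 9 above, and HEYL, a repressor induced by NOTCH, differed by -0.60. Matrix proteins and proteoglycans had a median 0.21 below it, with 17 of 21 not above it and 1 at 1.5-fold: GPC3, a glypican, read 2.85, 1.77 and 2.16, and the laminin chain LAMB1 differed by -0.58. Lysosome and autophagy genes had a median 0.18 below it, with MCOLN1, a lysosomal calcium channel, at -0.48, ULK1, the kinase that starts autophagy, at -0.46, and ATG12, a conjugated autophagy protein, at 0.76. SOX factors had a median of -0.26 relative to the median gene, with 5 of 8 not above it, and between -0.52 and -0.15 under the alternatives. SOX9 differed by -0.94, SOX12 by -0.51, SOX4 by -0.29 and SOX2 by -0.25, against SOX8 at 0.68, SOX7 at 0.61 and SOX13 at 0.29. With the empty vector SOX8 read 1.12 and SOX7 1.28, close to background. Of 326 ZNF zinc finger genes 27 were 1.5-fold higher and 5 lower, against 6.07% and 2.08% of all genes, and the median stood 0.03 above the median gene. Of 25 genes of Golgi and endoplasmic reticulum transport YIF1B alone was 1.5-fold apart, with its paralog YIF1A at 0.04. The partners of LGALS3BP differed less than LGALS3BP itself: NID1 (nidogen) by -0.34, the tetraspanin CD63 by -0.30, galectin LGALS3 by -0.13 and the integrin chain ITGB1 by 0.44. HOX genes had 1 of 20 at 1.5-fold, HOXC13. In the heat shock list 1 of 18 stood 1.5-fold apart, BAG3, a partner of HSP70, at 4.06, 3.80 and 3.26. A count of 1 in the matrix, Golgi, HOX or heat shock list is near the all-gene shares of 6.07% and 2.08%.

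**Figure D4:**
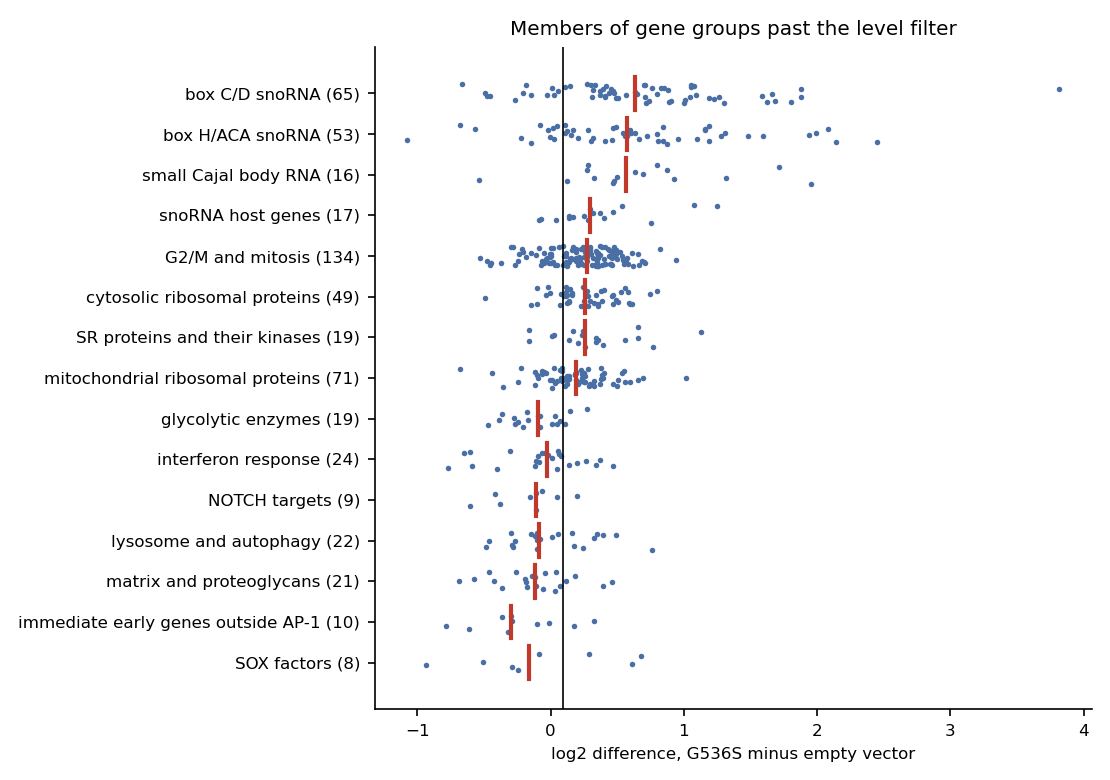
Each point is a gene past the level filter, placed by its log2 difference, G536S minus empty vector, with the number of genes of each group in brackets, the group median as a bar and the median of all genes as a vertical line. The 3 small RNA groups have medians of 0.56 to 0.63, G2/M genes 0.27 and the immediate early genes outside AP-1 -0.29.

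A gene for which the G536S array stands apart from both other arrays does not rest on the empty vector array alone. It rests on the 1 G536S array instead. At 2-fold, 18 genes were above both other arrays (0.161%) and 6 below both (0.0536%). At 1.5-fold the counts were 141 (1.26%) and 51 (0.455%). For the empty vector array the counts were 80 above and 257 below, and for the wild-type array 94 and 26. After quantile normalization the G536S counts became 101 and 77 and those of the empty vector array 167 and 121. Of the 141 genes, 64 were protein-coding and 47 were snoRNAs or scaRNAs, 21 box C/D, 18 box H/ACA and 8 scaRNA. MTARC1 was 1.19 above the nearer of the other arrays, IDI1 0.97 above, NPNT, an integrin ligand of the kidney basement membrane, 0.95 above, and LARP7, which binds the 7SK RNA, 0.81 above. Below both lay YIF1B, LDOC1, PKN3 and BHLHE40, together with GRN, the precursor of granulins, at 7.49, 7.61 and 6.63, MEN1 (menin), a chromatin adaptor, at 6.63, 6.64 and 5.86, ATP6V0C, of the proton pump of lysosomes, at 9.42, 9.42 and 8.66, and CNN2, a calponin that binds actin, at 7.13, 7.21 and 6.33.

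**Figure D5:**
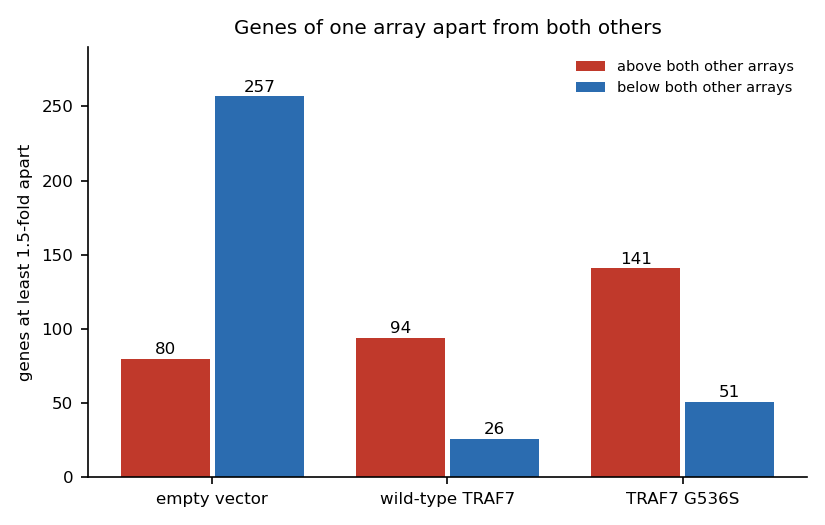
Bars count the genes past the level filter for which an array is at least 1.5-fold above or below both other arrays, 1 array per group. The G536S array has 141 genes above and 51 below, and the empty vector array 80 above and 257 below.

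Position in the genome and promoter composition were read from the RefSeq table of GRCh38.p14, since the array's own build is not given. Of 10051 pairs of neighbouring protein-coding genes past the filter, 43 were both at least 1.5-fold higher, 6 both lower and 13 opposite. Singly, 5.19% of these protein-coding genes were 1.5-fold higher and 1.87% lower. Whether neighbours pair more often than those shares give was not tested. The pairs include IFITM2 with IFITM1 (-0.60 and -0.65), SGSH with SLC26A11 (-0.73 and -0.74) and the run RWDD1, ZUP1 and KPNA5 (0.92, 0.72 and 0.93). The low genes LGALS3BP and RBFOX3 are near neighbours, and the measured genes between them, CANT1 and ENGASE, differed by 0.02 and 0.42. The 250 bases before the start had a median GC content of 62.0% in 29 of the 30 highest protein-coding genes and of 67.8% in the 20 of the 30 lowest with a promoter in the table, against 65.6% over 8456 genes. Their median gene lengths in the RefSeq table were 51.7 and 11.8 kb, against 33.5 kb. Over all 8456 genes the relation with the difference was weak, with a Spearman correlation of 0.11 for gene length and -0.08 for GC content, as a description across genes that share the same arrays.

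Markers of cell identity were mostly near background. Of 13 measured markers of kidney development and epithelium 5 passed the filter: the progenitor factor SIX2 read 3.85, 2.99 and 3.34 in the empty vector, wild-type and G536S arrays, and PAX2, WT1, LHX1 and LRP2 differed by -0.22, -0.06, 0.10 and 0.56. Of 19 neuronal markers 8 passed, with NEFL, a neurofilament, at 6.01, 6.26 and 5.62 and UCHL1 at 6.38, 6.43 and 6.43, and RBFOX3 was the only 1 at 1.5-fold. Of 15 leukocyte markers 3 passed, of 11 endothelial markers 3 and of 8 fibroblast markers 1, and 0 of these were 1.5-fold apart. In marker lists this short such counts are near the 6.07% higher and 2.08% lower of all genes.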

How the data were processed

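The authors deposited log2 probe set values made with RMA (robust multi-array average), per the submitters' processing notes; its version and log base, and the build behind the array, are, for these arrays, not given in the sources used here. Base 2 was inferred, because the highest value, 12.57, exceeds 11.09, the natural log of a 16-bit scanner's top. The deposited table holds 53617 probe sets on each of 3 arrays. The annotation lists 25713 of them, 23871 with 1 gene and 1842 with several, and the other 27904 are unnamed. Symbols were updated by Entrez ID through a RefSeq table of GRCh38.p14 (22569 matched, 90 with a newer symbol, 1302 kept the older symbol).

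Differences are G536S minus empty vector on the log2 scale, and a gene is counted at 2-fold or 1.5-fold. With 1 array per group no test was run. Precision is limited by the number of arrays. The genes, the 57 gene lists and the rules for naming genes (TRAF7, ID4 and LGALS3BP, the 30 highest and 30 lowest protein-coding genes, 15 high and 10 low small RNAs, and up to 10 members of a list farthest from the median gene) were chosen with earlier results of these data known. Genes apart from both other arrays, neighbouring genes and members named for context were chosen after their values were seen. Promoters and mature miRNAs (21 of 23 matched) come from RefSeq.

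The alternatives tried were no filter, a filter at the 75th percentile, averaging a gene's probe sets, quantile normalization, median centring, cyclic loess, a floor at the 25th percentile and, added after seeing the data, protein-coding genes alone and, for small RNAs and hosts, a limit on a single array. Counting was checked on simulated data. Python 3.11.15, numpy 2.4.6, pandas 2.3.3, matplotlib 3.10.9 and limma 3.58.1 in R 4.3.3 were used.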

Additional observations from a re-analysis of the deposited data

Results flagged for a closer look

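For 5 named genes the G536S array and the wild-type array lay on opposite sides of the empty vector array, each at least 1.5-fold away. DUSP1 differed by -0.84 with G536S and by 1.52 with wild type, DDIT4, an inhibitor of mTORC1, by -0.59 and 1.03, ADAMTS1 by -0.61 and 0.76, and MIR221 by -1.27 and 0.97. RN5S132, a 5S RNA copy with near-identical relatives, differed by 0.92 and -0.62. The difference between the constructs was not tested, and both values share the empty vector array.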

How the results depend on the processing

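No paired analysis was possible because each group has 1 array. The counts at 2-fold (104 higher, 30 lower) and 1.5-fold (680, 233) were, with quantile normalization, 53, 56, 353 and 498. Cyclic loess gave 60, 51, 389 and 442. The 75th percentile filter, which counts fewer genes, gave 57, 15, 366 and 133; protein-coding genes alone gave 52 and 17 at 2-fold. Genes with G536S 1.5-fold above both other arrays numbered 70 with that filter, and genes below both numbered 77 after quantile normalization. Relative to the median gene, spliceosomal and other small RNAs (-0.0209), 5S RNA copies (-0.0317), histones (-0.0343) and anoctamins (-0.0240) turned below it with no filter, and histones (-0.0964) with the 75th percentile filter. Of the 30 highest and 30 lowest protein-coding genes, chosen for their size, 18 and 17 stayed past 2-fold in every rescaling, the floor and the mean of probe sets. The causes were not tested.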
